A study of Mus musculus with 30 samples.

Results

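The genes described here encode 10 transcription factors and regulators of the ATF, CREB and cellular stress response family: Atf1, Atf2, Atf3, Atf4, Atf5, Atf6, Atf7, Creb1, Crebrf and Ddit3. They were chosen by name, from 21887 protein-coding genes placed on the mouse chromosomes by RefSeq. Chromatin immunoprecipitation with sequencing (ChIP-seq) had been run for UTX and for Menin in WT-MA9, a mouse line of acute myeloid leukaemia with stable expression of the MLL-AF9 fusion from pMSCV-MLL-AF9-GFP. A peak was assigned to a gene when its summit lay inside the gene or within 5 kb of it. The peak lists cover UTX after MI-503, UTX in DMSO, Menin after MI-503 and Menin in DMSO, with 1 library per condition, each harvested after 4 days. All of these cells carry the fusion, DMSO is the vehicle, and MI-503 is an inhibitor of the binding of Menin to MLL proteins. With 1 library per condition, no difference between conditions below has a replicate check, and none was tested. The members had been proposed with peak values of these data known, so the counts over the 10 genes describe them and are not evidence about the family.

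ATF and CREB proteins are basic leucine zipper factors that bind DNA as dimers, many of them at cAMP response elements. CREB1 and ATF1 are activated by phosphorylation downstream of cAMP and calcium. ATF4, ATF5 and the CHOP protein made by Ddit3 accumulate when translation is slowed by the integrated stress response, and ATF6 is released from the membrane of the endoplasmic reticulum when unfolded proteins build up. Menin holds the MLL1 and MLL2 methyltransferase complexes on chromatin, and UTX is a histone H3 lysine 27 demethylase within the MLL3 and MLL4 complexes.

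The promoters of 6 of these genes are printed, picked for the contrasts among their peaks. No link between sequence and peaks was tested. Crebrf carried the highest peaks, Atf4, Ddit3 and Atf3 are among the stress factors, Creb1 had a UTX peak without Menin, and Atf1 had a Menin peak without UTX. Each sequence is from RefSeq (GRCm38.p6, the assembly of mm10) and runs from 250 bases before the annotated start to 50 bases after it, on the strand of the gene. Capitals mark TGACG, the short site within the cAMP response element, and CCAAT, the box bound by NF-Y. On the opposite strand these read CGTCA and ATTGG.
Crebrf, chr17:26715400-26715699, plus strand: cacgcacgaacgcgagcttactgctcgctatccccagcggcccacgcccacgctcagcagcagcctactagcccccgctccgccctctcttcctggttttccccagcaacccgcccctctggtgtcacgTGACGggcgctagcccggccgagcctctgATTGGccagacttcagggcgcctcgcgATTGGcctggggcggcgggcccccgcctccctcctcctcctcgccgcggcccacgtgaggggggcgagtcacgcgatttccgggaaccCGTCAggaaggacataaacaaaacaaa
Atf4, chr15:80254934-80255233, plus strand: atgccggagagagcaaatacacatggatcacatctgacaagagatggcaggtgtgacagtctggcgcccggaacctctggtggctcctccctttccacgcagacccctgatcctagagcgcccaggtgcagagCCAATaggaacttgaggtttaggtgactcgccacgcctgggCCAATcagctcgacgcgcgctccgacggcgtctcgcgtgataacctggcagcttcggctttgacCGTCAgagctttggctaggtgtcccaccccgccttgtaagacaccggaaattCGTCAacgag
Ddit3, chr10:127290543-127290842, plus strand: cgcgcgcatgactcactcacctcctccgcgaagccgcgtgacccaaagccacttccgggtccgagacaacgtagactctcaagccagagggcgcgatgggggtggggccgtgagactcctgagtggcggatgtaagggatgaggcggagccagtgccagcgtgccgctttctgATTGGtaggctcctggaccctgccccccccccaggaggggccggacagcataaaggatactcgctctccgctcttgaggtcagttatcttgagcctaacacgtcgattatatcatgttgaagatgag
Atf3, chr1:191183284-191183583, minus strand: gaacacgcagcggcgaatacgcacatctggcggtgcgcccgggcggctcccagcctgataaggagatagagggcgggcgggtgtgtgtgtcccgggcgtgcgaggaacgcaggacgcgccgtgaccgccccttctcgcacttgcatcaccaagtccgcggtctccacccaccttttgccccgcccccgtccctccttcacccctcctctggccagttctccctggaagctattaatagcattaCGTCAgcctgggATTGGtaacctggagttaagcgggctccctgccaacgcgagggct
Creb1, chr1:64532554-64532853, plus strand: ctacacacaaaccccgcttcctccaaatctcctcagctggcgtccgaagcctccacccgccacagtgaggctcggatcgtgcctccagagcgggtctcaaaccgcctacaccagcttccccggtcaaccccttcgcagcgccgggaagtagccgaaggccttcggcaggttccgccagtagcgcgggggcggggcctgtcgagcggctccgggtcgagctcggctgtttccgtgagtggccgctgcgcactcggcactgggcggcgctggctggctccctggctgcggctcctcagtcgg
Atf1, chr15:100227609-100227908, plus strand: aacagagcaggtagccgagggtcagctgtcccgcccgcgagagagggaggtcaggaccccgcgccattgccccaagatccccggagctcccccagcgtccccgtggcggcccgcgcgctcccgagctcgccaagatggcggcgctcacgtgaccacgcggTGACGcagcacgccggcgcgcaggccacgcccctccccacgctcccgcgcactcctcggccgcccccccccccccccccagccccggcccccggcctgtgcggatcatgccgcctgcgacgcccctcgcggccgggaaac

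UTX after MI-503 was found at 9 of the 10 genes, all but Atf1, with 14 peaks. Over all protein-coding genes the share with such a peak was 48.3%. UTX in DMSO was found at Crebrf alone, with 1 peak, and 1.07% of all genes had one. Menin after MI-503 was found at none of the 10, against 0.0183% of all genes. Menin in DMSO was found at 9 of the 10, all but Creb1, with 17 peaks, against 42.9% of all genes. A peak of UTX after MI-503 and a peak of Menin in DMSO were both present at 8 of the 10, and at 38.0% of all genes. Because the genes were chosen with these lists known, nothing is read from the distance between the counts and those shares.

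The lists differ greatly in length, with 14231 peaks for UTX after MI-503, 217 for UTX in DMSO, 8 for Menin after MI-503 and 11195 for Menin in DMSO. Fold enrichment is the deposited ratio of the reads piled up at the summit to the local background, each with 1 read added, and ranks below are by −log10 q within a list. The fold and p-value of each peak together fixed the number of extended reads at its summit. In the UTX MI-503 and Menin DMSO lists this number came out whole in 100% of the 300 peaks tried, with no scaling. In the UTX DMSO list it was whole in 5.53% of the peaks without scaling. A scaling of 1.14, picked from 4001 ratios on other peaks of that list, made it whole in 100% of the 177 peaks left out of the search. The 8 peaks of Menin after MI-503 are too few for such a check, and no reads are given for them. Summit reads rest on this solution, and the total reads of each library are unknown.

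**Figure D1:**
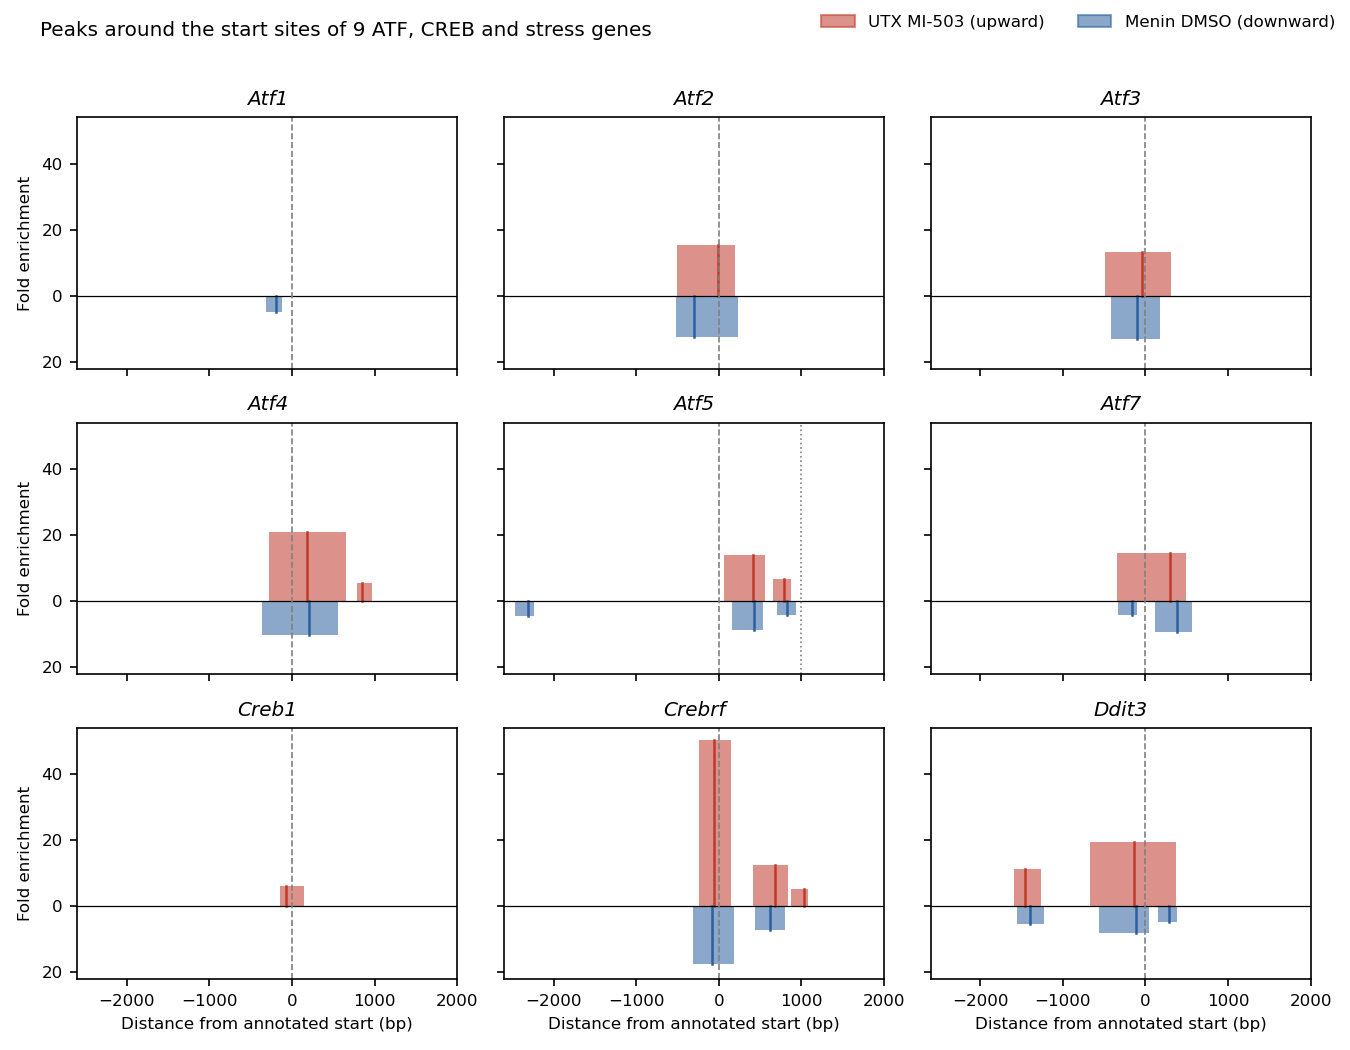
Peaks of UTX after MI-503 (bars upward) and Menin in DMSO (bars downward) around the annotated starts of 9 of the genes. The horizontal axis is the distance from the start in bp along the gene, bar width is the peak, bar height its fold enrichment, and the vertical line in a bar its summit. The dotted line at Atf5 is its other annotated start, Atf6 has no start in the table used and is not drawn, and a Menin peak 7373 bp after the start of Ddit3 lies outside the range. Crebrf stands highest in both directions, at 50.3-fold and 17.4-fold.

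Crebrf encodes a regulator that restrains CREB3, a membrane-bound relative of CREB. Its promoter carried the peak with the highest fold enrichment of all 14231 UTX peaks after MI-503, 50.3-fold, which ranked 6 by −log10 q (144). That peak (mm10, chr17:26715410-26715798) had its summit 63 bp before the annotated start. The UTX peak in DMSO (chr17:26715483-26715618) ranked 39 of 217 at 10.1-fold, with its summit 87 bp before the start. The Menin peak in DMSO (chr17:26715335-26715832) ranked 428 of 11195 at 17.4-fold, with its summit 82 bp before the start. These 3 summits lay within 24 bp of each other, and the UTX DMSO peak lay wholly inside the UTX MI-503 peak.

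The reads behind the Crebrf peaks were 91 at the UTX summit after MI-503 (exact Poisson 95% interval 73.3 to 112), against 22 at the UTX summit in DMSO (13.8 to 33.3). The DMSO value rests on the fitted scaling of 1.14, and is 19.2 on the deposited scale. These counts were not adjusted for sequencing depth. If MACS2 scaled the larger library down, the UTX DMSO library was larger than the vehicle input and the UTX MI-503 library was not. The part of depth in these counts was not tested. The intervals cover counting error within these 2 libraries only. The UTX summit after MI-503 has the highest fold of its list, and the difference between the conditions was not tested. The narrowest peak, a length that MACS2 ties to its fragment length, was 179 bp in the MI-503 list and 127 bp in the DMSO list, and the part of fragment length in these counts was not tested. The Menin summit in DMSO held 90 reads (72.4 to 111), nearly the number for UTX after MI-503. The backgrounds were 0.827 reads for UTX after MI-503 and 4.23 reads for Menin in DMSO, which with 1 read added to summit and background give the deposited folds of 50.3 and 17.4. Fold values are therefore not compared between lists in what follows.

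Inside Crebrf a further pair of peaks sat downstream of the start. UTX after MI-503 reached 12.6-fold 679 bp after the start (rank 3042), and Menin in DMSO 7.26-fold 623 bp after it (rank 4535), with summits 56 bp apart. A narrow UTX peak 1032 bp after the start was among the lowest of its list, at 5.42-fold and rank 12522. No other protein-coding gene lay within 5 kb of any of these summits. Letters of the promoter window near the main summits include ATTGG with first bases 92 and 65 bp before the start, so that the UTX MI-503 summit falls on the copy nearer the start. TGACG begins 121 bp before the start and overlaps an E-box, CACGTG, that begins 125 bp before it.

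Atf4 encodes the factor that drives amino acid supply and redox genes in the integrated stress response. Both proteins peaked just inside the gene. UTX after MI-503 was 20.8-fold enriched at rank 927, with the summit 178 bp after the start (chr15:80254909-80255839). Menin in DMSO was 10.3-fold enriched at rank 2090, with the summit 200 bp after the start (chr15:80254825-80255737). The summits were 22 bp apart, and both peaks were broad, at 931 bp against a list median of 264 bp and at 913 bp against a list median of 272 bp. A small UTX peak after MI-503 lay 851 bp after the start, at 5.47-fold and rank 11804, with no Menin peak over it. The promoter window of Atf4 has CCAAT at 117 and 76 bp before the start, upstream of both summits. Mief1 also lay within 5 kb of these summits, and Rps19bp1 within 5 kb of the UTX summit 851 bp after the start.

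Ddit3 encodes CHOP, which promotes cell death after prolonged stress of the endoplasmic reticulum. Its UTX peak after MI-503 (chr10:127290120-127291160) was the widest at any of the 10 genes, at 1041 bp, and rank 55 of its list by width. It was 19.5-fold enriched at rank 1063, with its summit 139 bp before the start. Menin in DMSO had 2 separate peaks under it, 7.98-fold with the summit 109 bp before the start (rank 2822) and 4.85-fold with the summit 286 bp after it (rank 8287). A second pair lay further upstream, with UTX after MI-503 at 11.5-fold 1462 bp before the start and Menin in DMSO at 5.43-fold 1393 bp before it. Those upstream summits lay inside Mbd6, a gene of the methyl-CpG-binding family, and nearer to its annotated start than to that of Ddit3. The main summits also lay inside Mbd6, at 139 bp and 109 bp from Ddit3, so peaks here cannot be given to one gene. A last Menin peak in DMSO, at 3.95-fold and rank 10745, lay 1875 bp beyond the far end of Ddit3 and inside Mars1.

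Atf3 encodes a stress-induced factor that mostly represses transcription. It had 1 peak in each of the long lists and no other gene within 5 kb. UTX after MI-503 was 13.1-fold enriched at rank 2812, with the summit 41 bp before the start (chr1:191183025-191183816). Menin in DMSO was 13.0-fold enriched at rank 1035, with the summit 106 bp before the start (chr1:191183160-191183755). Its promoter was the sole one of the 10 windows read for these genes with TGATGNAA, the composite element shared by C/EBP and ATF factors. Over all windows of protein-coding genes, 3.60% hold it. The match begins 110 bp before the start on the opposite strand and lies under the Menin summit.

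Atf5 encodes a factor of the mitochondrial and integrated stress responses, and it has 2 annotated starts 1000 bp apart. A pair of peaks of each protein lay between them. The higher pair was UTX after MI-503 at 14.0-fold (rank 2172, chr7:44816098-44816589) and Menin in DMSO at 8.86-fold (rank 3364, chr7:44816125-44816501), with summits 9 bp apart, the closest of any pair at these genes. The lower pair was at 6.68-fold (rank 8075) for UTX after MI-503 and 4.17-fold (rank 7704) for Menin in DMSO, with summits 34 bp apart. A lone Menin peak in DMSO sat 2313 bp outside the gene, at 4.36-fold. Nup62 and Il4i1b overlap or flank this place, and the summits of the higher pair were nearer to the annotated start of Il4i1b than to either start of Atf5.

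Atf6 encodes the membrane-tethered sensor of unfolded proteins. It was covered weakly by both proteins. UTX after MI-503 reached 5.48-fold (rank 11337, chr1:170709735-170709937) and Menin in DMSO 4.07-fold (rank 8656, chr1:170709599-170709942) at a shared place inside the gene, with summits 73 bp apart. That place lies at least 5305 bp from the nearer boundary of this gene of 164129 bp. A further Menin peak in DMSO, at 4.24-fold (rank 8164), had its summit 135 bp outside the other boundary. No UTX peak covered that boundary, and the promoter table used has no entry for Atf6.

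Atf2 and Atf7 encode close relatives that are phosphorylated by stress-activated kinases. At Atf2, UTX after MI-503 was 15.3-fold enriched (rank 2038, chr2:73892446-73893142) and Menin in DMSO 12.4-fold (rank 1897, chr2:73892407-73893150). The Menin peak covered the whole UTX peak, yet the summits were 296 bp apart, at 9 bp before the start for UTX and 305 bp before it for Menin. At Atf7, UTX after MI-503 formed 1 peak of 842 bp at 14.5-fold (rank 1238, chr15:102624968-102625809), with its summit 299 bp after the start. Menin in DMSO formed 2 peaks beneath it, 9.50-fold with the summit 382 bp after the start (rank 1804) and 4.32-fold with the summit 164 bp before it (rank 7305). A wide UTX peak over a pair of Menin peaks on either side of the start was thus seen at both Atf7 and Ddit3. How often this arrangement occurs over all genes was not counted, so nothing is read from it. The local background at the Atf7 UTX peak was 2.55 times the lowest of its list, the highest at any of the 14 UTX MI-503 peaks.

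Creb1 and Atf1, which encode the factors that respond to cAMP, were the 2 genes with 1 protein alone. Creb1 had a UTX peak after MI-503 at 6.20-fold (rank 9393, chr1:64532657-64532952), with the summit 72 bp before the start and 12 reads (6.20 to 20.96). Atf1 had a Menin peak in DMSO at 4.94-fold (rank 8209, chr15:100227549-100227741), with the summit 190 bp before the start and 19 reads (11.4 to 29.7). Both peaks stood in the lower part of their lists, at 66.0% and 73.3% of the way down by −log10 q. Of all protein-coding genes, 10.3% had UTX after MI-503 without Menin in DMSO, and 4.84% the reverse. Whether the missing peak reflects absence or a value under the calling threshold cannot be told from the lists. Neither promoter window holds CCAAT, and nor does that of Atf7, which had peaks of both proteins.

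**Figure D2:**
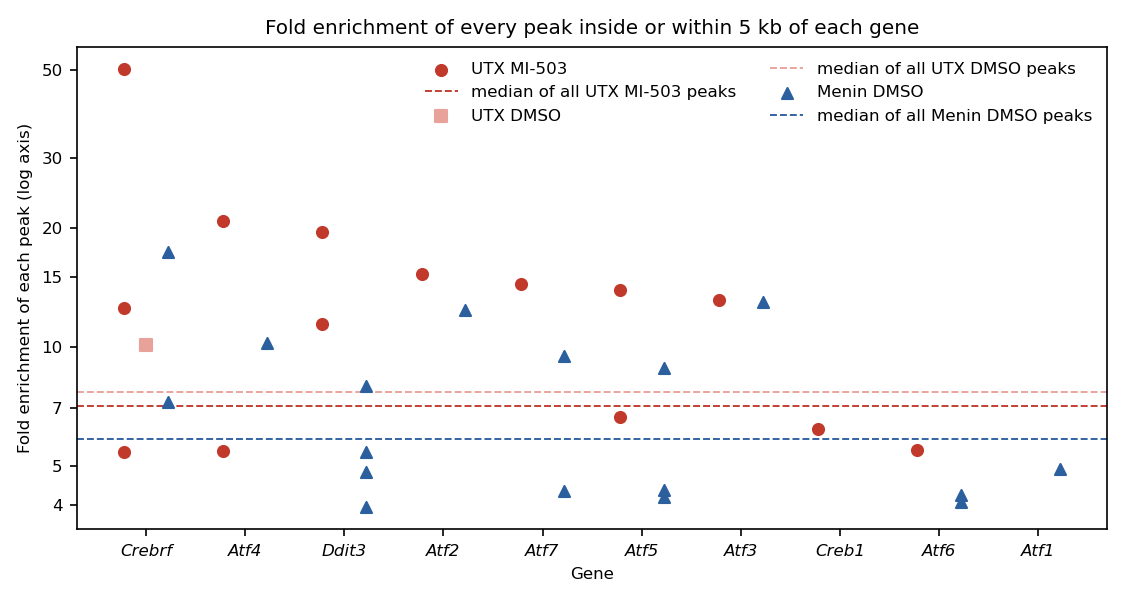
Fold enrichment (log axis) of every peak inside or within 5 kb of each gene, with dashed lines at the median of all peaks in the same list. The highest peak of a gene is here the one with the highest −log10 q. Of the 9 genes with UTX after MI-503, 7 have the fold of that peak above the list median of 7.11. Creb1 and Atf6 lie below it, and the share above it over all genes with such a peak is 70.7%. Of the 9 with Menin in DMSO, 7 have the fold of that peak above the list median of 5.87. Atf1 and Atf6 lie below it, and the share above it over all such genes is 64.5%.

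By the reads at the summit of their highest peaks by −log10 q, the genes formed an order. The intervals cover counting error within 1 library only. The genes were chosen with peak values known, so no step in the order was tested. For UTX after MI-503, Crebrf (91 reads, 73.3 to 112) came first and Atf7 (44 reads, 31.97 to 59.1) next. Atf4, with 37 reads, and Ddit3, with 36, followed Atf7. Atf5 had 29 reads, Atf2 had 27 and Atf3 had 23. From Atf7 to Atf3 each interval overlapped those of its neighbours, so this part of the order is not resolved. Creb1 (12 reads) and Atf6 (11 reads) came last, but their intervals overlapped that of Atf3, so this step is not resolved either. For Menin in DMSO, Crebrf (90 reads, 72.4 to 111) was followed by Atf3 (65 reads, 50.2 to 82.8), and the intervals overlapped. Atf7 had 57 reads, Atf4 had 48, Ddit3 had 46, Atf2 had 44 and Atf5 had 35. Atf6, with 24 reads, and Atf1, with 19, were lowest, but their intervals overlapped that of Atf5. Crebrf had the most reads in both lists. Its lead is not resolved in the Menin list and was not tested in the UTX list. The interval of Atf3 for Menin also overlapped those of Atf7, Atf4, Ddit3 and Atf2, so its place is not resolved in either list.

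**Figure D3:**
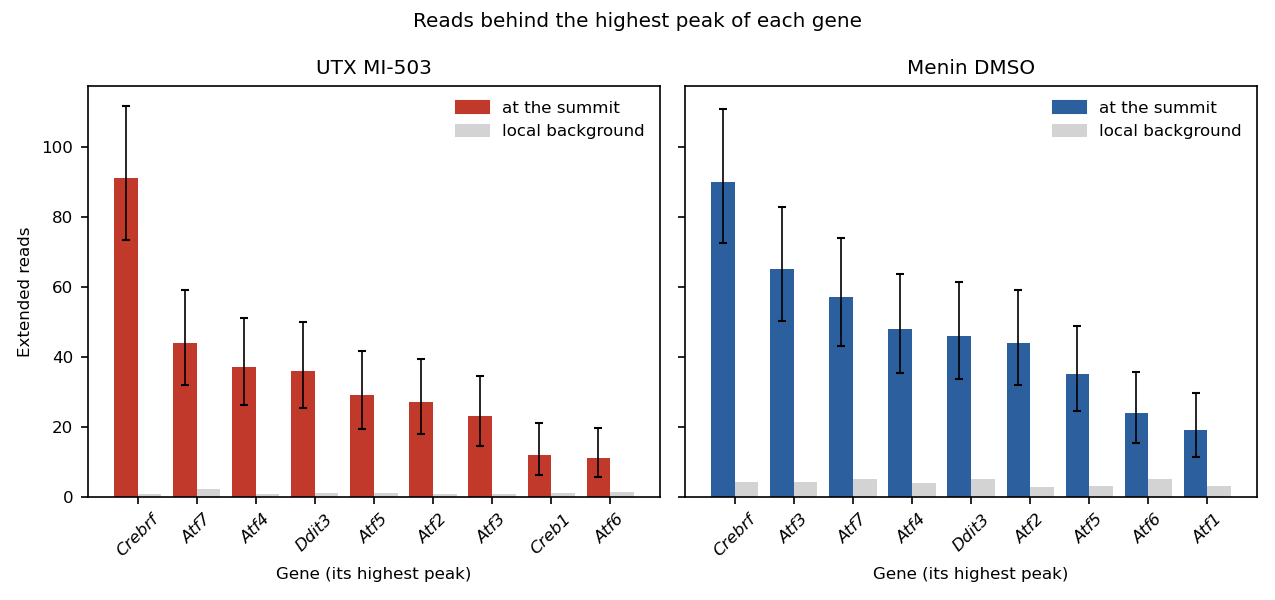
Extended reads at the summit of each gene's highest peak by −log10 q (coloured bars) and in the local background there (grey bars). The panels are for UTX after MI-503 and Menin in DMSO. Error bars are exact Poisson 95% intervals for counting error. Crebrf has 91 and 90 reads, and backgrounds at these peaks stay below 3 reads for UTX and below 6 reads for Menin.

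Both proteins shared places at these genes. Of the 14 UTX MI-503 peaks, 11 shared at least 1 bp with the Menin DMSO list, against 53.4% of all UTX MI-503 peaks. Of the 17 Menin DMSO peaks, 13 shared bases with the UTX MI-503 list, against 66.4% of all Menin DMSO peaks. The overlaps made 13 pairs at 8 genes, with summits 9 to 463 bp apart and a median of 65 bp. Over all 7781 overlapping pairs of the lists, the median was 41 bp. At these genes 10 of the 13 pairs had summits within 100 bp, and over all pairs 78.7% did. The pairs further apart were those of Atf2 and the second Menin peaks under the wide UTX peaks of Atf7 and Ddit3. UTX and Menin were mapped under different treatments in this comparison, so antibody and treatment cannot be told apart, and sharing a place does not mean that both proteins sat there in the same cells.

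Most of these peaks lay at annotated starts. Summits less than or equal to 1 kb from such a start were found at 8 genes for UTX after MI-503 and at 8 for Menin in DMSO, out of the 9 genes with a start in the table. Over 17492 protein-coding genes with a start there, the shares were 39.1% and 33.5%. The 5 kb limit was not close to any assigned peak, since the farthest summit lay 2313 bp outside its gene. The nearest peaks beyond the limit were 6794 bp and 6803 bp from Atf4 and lay within 42 bp of the start of Rps19bp1, at 6.57-fold for UTX after MI-503 and 5.19-fold for Menin in DMSO.

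The promoter windows of these genes were rich in G and C, with a median of 65.5% over 10 windows, against 56.3% over all 21263 windows of protein-coding genes. Atf5 has 2 of the 10 windows, and Atf6 has none. Each motif was searched on both strands. The full cAMP response element, TGACGTCA, was in none of the 10 windows, and in 2.23% of all. The short site within it, TGACG, was in the windows of Atf1, Atf3, Atf4 and Crebrf, and in 23.6% of all. CCAAT was in a window of Atf2, Atf3, Atf4, Atf5, Crebrf and Ddit3, and in 38.2% of all. The E-box CACGTG was in 3 windows, those of Atf1, Atf7 and Crebrf, and in 7.84% of all. The GC box GGGCGG was in 8 windows, those of 7 genes, and in 46.2% of all. CCACG, a part of the element for stress of the endoplasmic reticulum, was in 6 windows and in 37.4% of all. A match is a run of letters and not a binding site. No NF-YA library was analysed here.

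The partners and targets of these factors were counted in 5 lists of 64 genes in all. UTX after MI-503 was found at 54 of them, against 48.3% of all protein-coding genes, and Menin in DMSO at 50, against 42.9%. Both were found at 47, against 38.0% of all genes. UTX in DMSO was found at 7, against 1.07% of all genes, and Menin after MI-503 at none, against 0.0183%. These lists too were chosen with earlier results known, so nothing is read from the distance. Among 10 signalling genes of the integrated stress response, 9 had both peaks. Eif2ak2, which encodes the kinase PKR, had UTX after MI-503 alone, at 7.05-fold. Among 14 genes of the ATF6 and IRE1 arms of the unfolded protein response, 13 had both, and Mbtps2, which encodes a protease that releases ATF6, had UTX after MI-503 alone, at 6.57-fold.

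The remaining lists hold targets, coactivators and relatives. Of 16 target genes of ATF4 and CHOP, 11 had both peaks. Phgdh, Shmt2 and Vldlr had neither, Slc7a11, which encodes the cystine transporter, had Menin in DMSO alone at 10.4-fold, and Ero1a had UTX after MI-503 alone at 5.99-fold. Of 12 CREB kinases and coactivators, 8 had both. Prkar2a at 4.49-fold and Ep300 at 10.8-fold had UTX after MI-503 alone, Camk4 at 4.22-fold had Menin in DMSO alone, and Crtc3 had neither. Of 12 other leucine zipper genes of the family, 6 had both. Batf3 at 6.02-fold and Jdp2 at 13.8-fold had UTX after MI-503 alone, Creb3l4 at 4.45-fold had Menin in DMSO alone, and Creb3l3, Batf and Batf2 had neither. The 7 genes with UTX in DMSO were Prkaca, Eif2ak3, Chac1, Hspa5, Hsp90b1, Herpud1 and Syvn1. All 7 also had UTX after MI-503 and Menin in DMSO. The share with both among all genes with UTX in DMSO was not counted, so nothing is read from this.

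**Figure D4:**
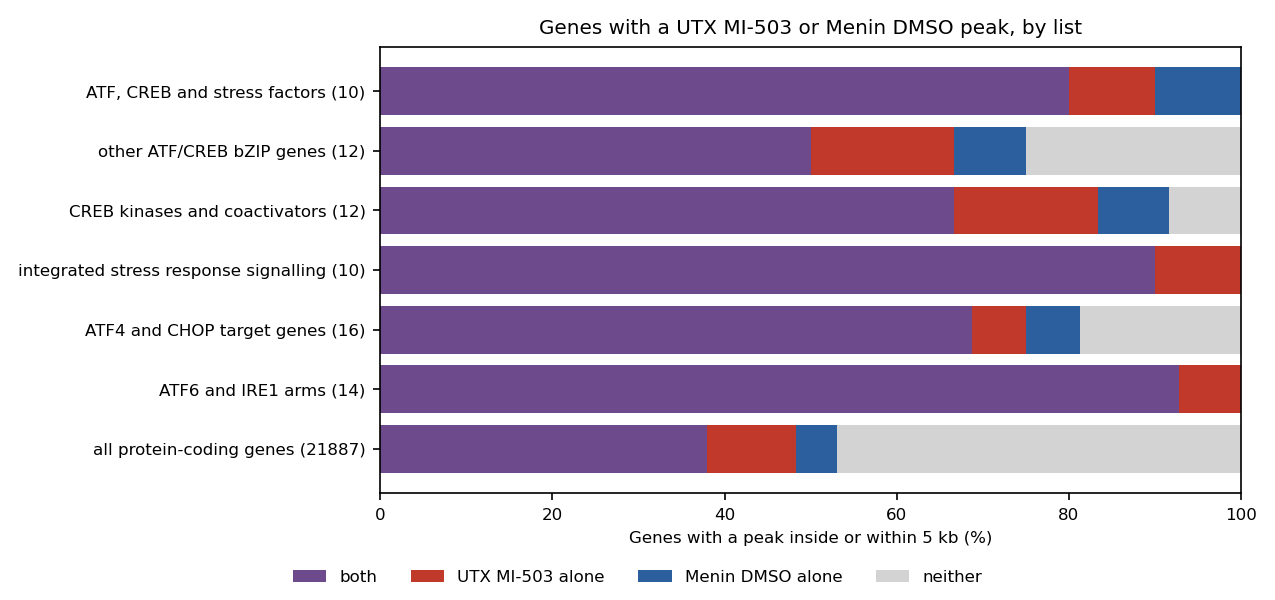
Percent of genes with peaks of both UTX after MI-503 and Menin in DMSO, of 1 alone or of neither, for the 10 genes described here, the 5 lists and all 21887 protein-coding genes, with the number of genes in brackets. Both peaks are present at 80% of the 10 genes, at 92.9% of the ATF6 and IRE1 list, at 50% of the other leucine zipper genes and at 38.0% of all genes.

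The genes whose peaks were most like those of Crebrf were sought among 225 genes that also had UTX in DMSO and lacked Menin after MI-503. Likeness was the distance between percentile ranks in the UTX MI-503 and Menin DMSO lists, where Crebrf stood at 0.0422% and 3.82% from the top. Among the 5 nearest were Cuta and Phf1, which share their peaks (distance 0.616 percentage points), and Megf9 (1.22). Megf9 had 42.1-fold enrichment for UTX after MI-503, 7.93-fold for UTX in DMSO and 22.1-fold for Menin in DMSO. Cuta and Phf1 lie on chromosome 17, as does Crebrf.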

How the data were processed

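Peak lists of 4 ChIP-seq libraries were analysed, and 26 of the 30 labelled libraries were not used here. Per the labels' protocols, cells were fixed with paraformaldehyde and their chromatin sonicated. Peaks were called with MACS2 on mm10, per the submitters' processing notes. The sources used here do not give its version, the aligner, the filters, the threshold or the concentration of MI-503. Peak names name the vehicle input of each antibody. The deposited fold is a ratio of summit reads to local background, taken with 1 read added to each, the form under which summit reads came out whole. The deposited −log10 values are those of the p-value and q-value. The deposited score is 10 times −log10 q without its decimals. Genes and starts came from RefSeq (GRCm38.p6), with positions counted from 1. Summit reads were solved from fold and p-value within 0.005 on the −log10 scale, assuming the Poisson model of MACS2. For UTX DMSO a scaling was searched so that reads became whole, and it was checked on peaks outside the search. The code recovered planted peaks and motifs, and simulated backgrounds, where weak draws were counted as recovered without being solved. Its overlaps were checked by a direct search over real peaks. The 10 genes, the pathway lists and the motifs were chosen with earlier results of these data known. Named genes were all 10, the list genes lacking a peak in 1 or both long lists, and the 5 most like the highest member, some of which are not reported here. The genes with UTX in DMSO were named after their values were seen. Python 3.11.15, pandas 2.3.3 and SciPy 1.17.1 were used.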

Additional observations from a re-analysis of the deposited data

How the results depend on the processing

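In 67 of 76 recomputations of 10 counts, the count stayed within 1.5 times its value. A further 3 counts, those of Menin MI-503, were 0 throughout and are left out of these numbers. The settings were windows of 1 kb and 10 kb, boundaries alone, stricter q and fold thresholds, stricter overlap, any base of a peak, and the nearest gene or start, the last chosen after seeing the data. Counting summits inside genes alone moved most. Genes with a peak fell from 9 to 6 for UTX MI-503 and from 9 to 6 for Menin DMSO, which lies exactly at the limit of 1.5 times. Peaks at the 10 genes then numbered 9 for UTX MI-503, 0 for UTX DMSO and 7 for Menin DMSO. UTX DMSO lost its 1 gene (0), and 5 genes kept an overlapping pair. Pathway genes with a peak numbered 30 for UTX MI-503, 0 for UTX DMSO and 19 for Menin DMSO. A fold of at least 5 left 9 Menin DMSO peaks, and Atf1 and Atf6 lost theirs. Given to the nearest gene alone, Ddit3 lost its UTX MI-503 peaks. Ranks of weak peaks rest on few reads. No paired analysis was possible because each condition had 1 library.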
